A study of Mus musculus with 2 samples.

Results

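The CSF1 receptor axis and 3 transcription factors of the myeloid lineage were described here at the chromatin level, as 6 loci of the mouse brain: Csf1r, its ligands Csf1 and Il34, and Spi1, Irf8 and Runx1. The loci were chosen by name, with earlier results of these data known, out of 21728 genes counted in the same way. Counts of loci set beside all genes are therefore a description. For each, Tn5 fragments overlapping the gene body and the 2 kb upstream were counted and given as fragments per 1000000 fragments of the same nuclei, a quantity called the level below. A level reports open chromatin over a locus and not its transcript.

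CSF1R is a receptor tyrosine kinase of monocytes, macrophages and microglia, and signalling through it is needed for the survival of microglia. It binds both CSF1 and IL-34. In the brain, IL-34 is known mainly as a neuronal product and CSF1 mainly as a product of glia. PU.1, encoded by Spi1, is an ETS factor that binds at many myeloid genes, Csf1r among them; IRF8 is a partner of PU.1 in monocytes and microglia, and RUNX1 is a factor of blood cell formation that is also active in myeloid cells.

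Nuclei came from wild-type young adult male C57BL/6J mice at 48 h, either after transient occlusion and reperfusion of the middle cerebral artery (stroke) or after sham surgery, in which the filament was inserted without lasting occlusion. Sham nuclei came from brains and stroke nuclei from the hemisphere on the side of the occlusion, with 4 brains pooled in each library, so animals could not be told apart and each condition had 1 library. No comparison had a replicate and none was tested: every interval below is a 95% exact interval that covers counting error only. Sham and stroke also differed in the tissue taken, which cannot be told apart from the surgery.

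The deposited lists held 76959104 fragments in sham and 96465679 in stroke. Barcodes called as cells were kept where over 20% of their fragments lay in peaks: 6817 of 6979 in sham (97.7%) and 5054 of 8740 in stroke (57.8%), with medians of 10356 and 9898 fragments per kept nucleus. The filter therefore removed many more barcodes from stroke than from sham. 42 kept barcodes occurred in both libraries.

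Myeloid nuclei were gated on Inpp5d, Fli1, Ikzf1, Ptprc, Dock2 and Apbb1ip, loci with known roles in leukocytes that are no members of the axis, and other classes on their own marker loci. The gate as designed, called the summed gate, asked for at least 5 fragments over the loci of a class, 2 times the expected number (1.5 times for the glutamatergic and GABAergic neurons) and a Poisson tail under 0.0001. It placed 81 sham nuclei (1.19%, interval 0.945% to 1.48%) and 116 stroke nuclei (2.30%, 1.90% to 2.75%) in the myeloid class. In the sham nuclei the label went against the data. A median of 85.7% of their gate fragments came from 1 of the 6 loci, and in 71 of the 81 nuclei that locus held over 50%. In the stroke nuclei the median was 43.8%, and in 45 of the 116 1 locus held over 50%. The summed level over 7 microglial marker genes that were not part of the gate (P2ry12, Tmem119, Sall1, Cx3cr1, Siglech, Gpr34 and Sparc) was 221.9 in these sham nuclei and 236.9 in all other sham nuclei, a ratio of 0.937 (0.817 to 1.07). In the 116 stroke nuclei the same sum was 534.5 against 263.4, a ratio of 2.03 (1.9 to 2.17). Cx3cr1 held most of these sums, with 696 of 1201 myeloid fragments over both libraries. It was at 1.31-fold, whereas the median gene ratio was 2.996, so the sums give that gene the most weight. Gene by gene, 0 of the 7 were at least 2-fold higher in the sham nuclei and 6 of 7 in the stroke nuclei.

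A second gate, chosen after these values had been seen and called the spread gate, asked of every class, in addition, for fragments at 4 or more of its loci with no locus above 50%. It gave 7 sham nuclei (0.103%, 0.0413% to 0.212%) and 80 stroke nuclei (1.58%, 1.26% to 1.97%), of which 68 were also in the summed gate. The other 12 had passed more than 1 class there and had been left out as possible doublets. The microglial sum was then 397.7 against 236.6 in sham, from 30 fragments with 2 of the 7 genes at 0, and 660.6 against 262.3 in stroke, a ratio of 2.52 (2.35 to 2.69) with 6 of 7 genes at least 2-fold higher. Over both libraries Cx3cr1 was at 1.72 and held 471 of the 949 fragments, and the median gene ratio was 5.53. In the 80 stroke nuclei the granulocyte list was at 56.1 against 18.8 (2.99-fold, 2.34 to 3.76), the monocyte and macrophage list at 143.0 against 84.6 (1.69-fold, 1.46 to 1.95) and the lymphocyte list at 82.0 against 86.0 (0.953-fold, 0.784 to 1.15). No gene of the 4 lists was at 0 there. Of the granulocyte genes 4 of 8 were at least 2-fold higher, of the monocyte and macrophage genes 4 of 8 and of the lymphocyte genes 2 of 8. Of all genes 12.4% were, with both libraries together. A few genes carried these sums. Over both libraries, Csf3r held 48 of the 80 granulocyte fragments (4.36-fold) and Cxcr2 held 15 (5.53-fold), whereas S100a8, S100a9, Mmp8, Retnlg, Ly6g and Ngp had between 1 and 4 each. F13a1, at 1.05-fold, and Mrc1, at 2.92-fold, held 64 and 58 of the 200 monocyte and macrophage fragments, and Ccr2, at 18.6-fold, held 21. With both libraries 3 of these 8 genes were at least 2-fold higher and 1 was at least 2-fold lower. In the 7 sham nuclei, with 75432 fragments against 1391149, 7 of 8 monocyte and macrophage genes, 6 of 8 granulocyte genes and 6 of 8 lymphocyte genes were at 0. Kinds of myeloid nuclei were not separated within the class, and whether the lists lay in different nuclei was not tested. The ratios over the loci are given under both gates, while levels by class and shares of nuclei are given under the spread gate unless stated. The spread gate left 93.1% of sham and 89.0% of stroke nuclei in no class, and myeloid nuclei it missed would lie among them.

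**Figure D1:**
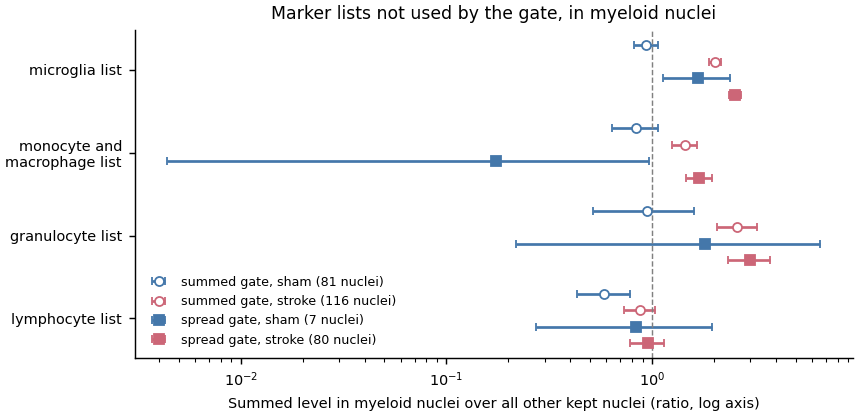
Summed level of 4 marker lists in myeloid nuclei divided by that in all other kept nuclei of the same library, on a log axis, with 95% exact intervals for counting error. Open circles are the summed gate and filled squares the spread gate. The sham nuclei of the summed gate lie at 0.937 for the microglia list, whereas the stroke nuclei of the spread gate lie at 2.52.

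Csf1r, Spi1, Irf8 and Runx1 were more open in myeloid nuclei than elsewhere, whereas Il34 was lower. For Csf1 the interval lay just above 1 under the spread gate with both libraries and included 1 under the summed gate and, within stroke, under both gates, at 1.26 (0.986 to 1.59) and 1.30 (0.987 to 1.69). With both libraries together and the summed gate, the ratio of the level in myeloid nuclei to that in all other kept nuclei was 3.01 for Csf1r (2.61 to 3.45), 2.57 for Irf8 (2.09 to 3.14), 2.44 for Runx1 (2.21 to 2.68), 1.95 for Spi1 (1.67 to 2.26), 1.15 for Csf1 (0.928 to 1.40) and 0.673 for Il34 (0.561 to 0.801). 3 of the 6 loci were thus at or above 2-fold, beside 6.82% of 20968 protein-coding genes with at least 20 fragments. With the spread gate the ratios were 6.6 for Csf1r (5.77 to 7.52), 4.76 for Irf8 (3.85 to 5.84), 4.27 for Runx1 (3.86 to 4.72), 3.09 for Spi1 (2.61 to 3.63), 1.34 for Csf1 (1.02 to 1.73) and 0.581 for Il34 (0.439 to 0.753). 4 of 6 then passed 2-fold, beside 12.4% of genes. Without the 12 possible doublets the ratios of the 4 loci were between 3.12 for Spi1 and 5.93 for Csf1r. The median of the 6 ratios under the spread gate was 3.68, against 0.974 over all genes tested.

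**Figure D2:**
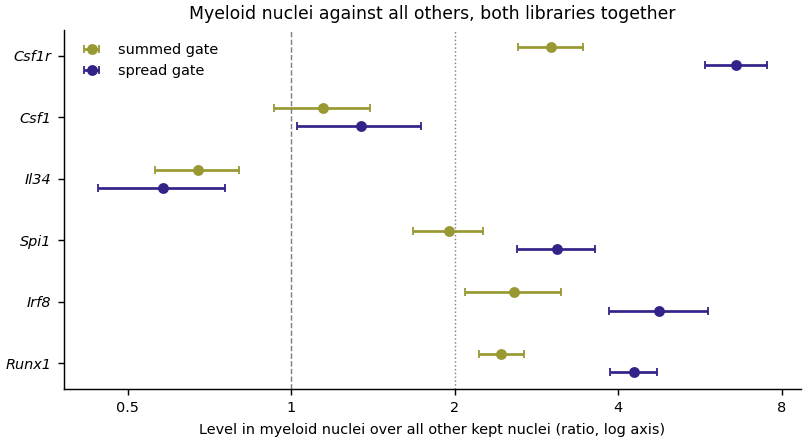
Ratio of the level in myeloid nuclei to that in all other kept nuclei, both libraries together, for the 6 loci under the summed and the spread gate, on a log axis with 95% exact intervals for counting error. The dashed line marks a ratio of 1 and the dotted line a ratio of 2. Csf1r lies farthest to the right at 6.6 and Il34 farthest to the left at 0.581 under the spread gate.

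Of the 87 myeloid nuclei of the spread gate 80 were from stroke, so the ratios with both libraries rested mostly on stroke. Within stroke alone and under the spread gate, the ratios were 6.13 for Csf1r (5.32 to 7.04), 4.51 for Irf8 (3.60 to 5.59), 3.57 for Runx1 (3.21 to 3.96) and 2.99 for Spi1 (2.51 to 3.54). Each interval overlapped that of its neighbour in this order. In the 7 sham nuclei the ratio for Csf1r was 5.59 (2.67 to 10.3) from 10 fragments, of which 7 (70%) came from 1 nucleus and none from 5 of the 7. That for Irf8 was 3.97 (1.08 to 10.2) from 4. For Spi1 it was 2.45 (0.897 to 5.33), an interval that included 1, and for Runx1 2.44 (1.17 to 4.48). In the 81 sham nuclei of the summed gate all 4 intervals included 1, with Csf1r at 1.0 (0.640 to 1.5). Under the summed gate the stroke myeloid levels were lower, at 107 for Csf1r (92.6 to 123), 81.4 for Spi1 (68.9 to 95.6), 47.6 for Irf8 (38.1 to 58.7) and 214 for Runx1 (193 to 236). Set per kilobase of counted region under the spread gate, the level in the stroke myeloid nuclei was highest for Csf1r at 5.04 fragments per 1000000 and per kb, followed by Irf8 at 3.03, Spi1 at 2.97, Csf1 at 1.98, Runx1 at 1.26 and Il34 at 0.576.

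**Figure D3:**
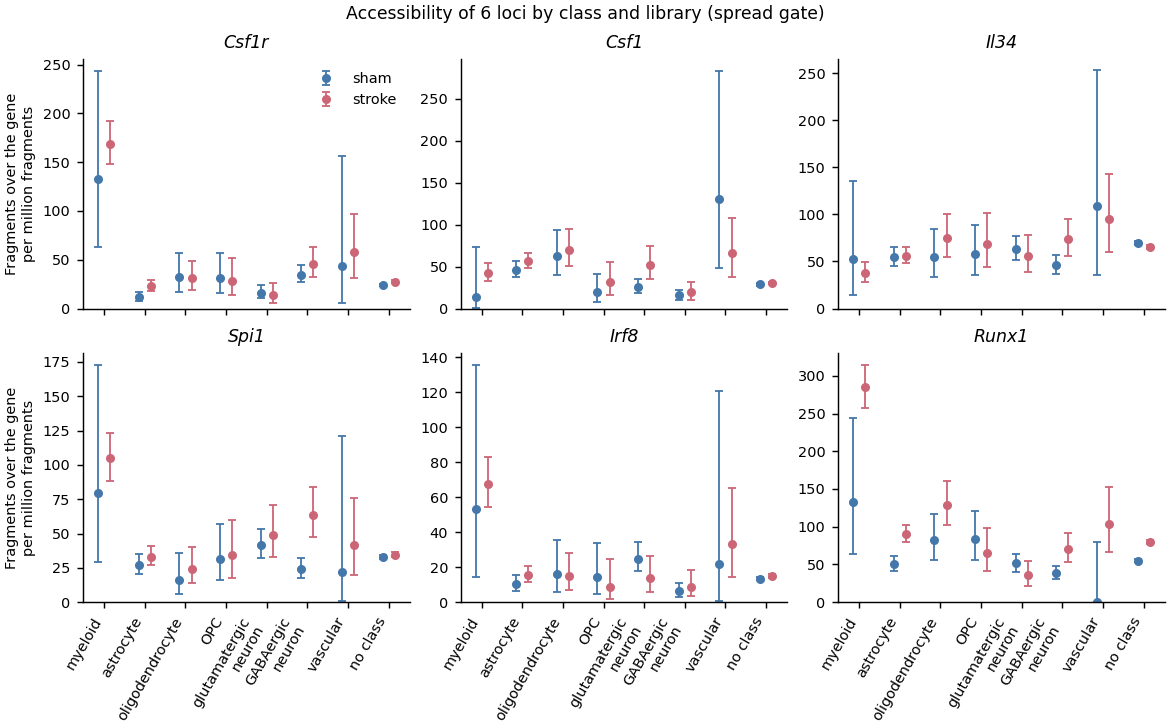
Level of each locus, in fragments per 1000000, by class, and in nuclei of no class, in sham (blue) and stroke (red) under the spread gate, with 95% exact Poisson intervals for counting error and each vertical axis starting at 0. In stroke, Csf1r, Irf8, Spi1 and Runx1 are highest in the myeloid class, where Runx1 stands at 285, and Il34 is lowest there.

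Among the ligands, Csf1 lies on chromosome 3 (GRCm38, 107741048 to 107760469, minus strand). Its level was lowest in GABAergic neurons. Under the summed gate and with both libraries together it was 50.1 in vascular nuclei (39.5 to 62.6), 47.9 in astrocytes (42.8 to 53.5) and 45.1 in oligodendrocytes (37.0 to 54.5), with intervals that overlapped. Under this gate the libraries did not give the same order. Oligodendrocytes were at 26.9 in sham (18.5 to 37.7) and 64.4 in stroke (50.7 to 80.7), and vascular nuclei at 58.7 (43.9 to 77.0) and 38.3 (24.8 to 56.5). Under the spread gate oligodendrocytes were at 62.8 in sham (39.8 to 94.2) and 70.1 in stroke (50.7 to 94.4). Vascular nuclei were there at 130 (47.8 to 283), from 6 fragments, and 66.2 (37.9 to 108). With both libraries and the summed gate the Csf1 level was lower in oligodendrocyte precursor cells (OPCs) at 28.6 (23.3 to 34.7) and glutamatergic neurons at 27.9 (23.8 to 32.4), and lowest in GABAergic neurons at 17.2 (13.8 to 21.2). In stroke the myeloid level was 41.0 (32.2 to 51.4) under the summed gate and 42.4 (32.3 to 54.7) under the spread gate. In sham it was 23.9 (15.3 to 35.5) in the 81 nuclei without raised microglial markers and rested on 1 fragment in the 7 nuclei of the spread gate. In myeloid nuclei 16% of cut sites fell in the 300 bp window with the most cuts, which holds a transcript start and an exon and makes up 1.40% of the counted region. The same 500 bp bin at the gene start was also the most open in all other nuclei, with 8.62 cut sites per 1000000 fragments against 19.8 in myeloid nuclei of the spread gate. Under the summed gate it held 8.67 against 12.35, and the window with the most cuts moved by 250 bp. Fragments over the window chosen under the spread gate gave a myeloid ratio of 2.94 (1.51 to 5.21) under that gate. Under the summed gate the ratio was 1.51 (0.771 to 2.66), an interval that included 1. The promoter, shown because its opening differed between the libraries (given below), spans chr3:107760420-107760719 on the minus strand and reads, from RefSeq on GRCm38.p6 and 5′ to 3′, as follows.
Csf1 promoter: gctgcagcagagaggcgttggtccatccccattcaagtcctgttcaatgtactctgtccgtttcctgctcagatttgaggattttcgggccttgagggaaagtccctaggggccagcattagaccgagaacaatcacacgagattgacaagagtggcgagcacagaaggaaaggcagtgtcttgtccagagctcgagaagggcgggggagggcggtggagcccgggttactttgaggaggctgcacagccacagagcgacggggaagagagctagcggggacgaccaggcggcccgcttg

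Fragments over this Csf1 promoter numbered 33 in astrocytes of the spread gate, a level of 6.56 (4.52 to 9.21), and 5 in myeloid nuclei, a level of 3.41 (1.11 to 7.96). The level in all nuclei but the myeloid ones was 1.87 (1.64 to 2.12). Astrocytes thus stood above this pool, which includes them and is mostly nuclei of no class. They also had more of their fragments in peaks, with medians of 52.4% in sham and 50.2% in stroke. Nuclei of no class had 38.6% and 32.8%, and stroke myeloid nuclei 29.8%. How far this moved the promoter levels was not tested, and no share of all promoters was taken for astrocytes. The myeloid interval overlapped that of the astrocytes and also held the value of the pool. Over the whole locus under the same gate, vascular nuclei (76.5) and oligodendrocytes (67.3) were above astrocytes (52.3), with overlapping intervals.

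The other ligand locus, Il34, lies on chromosome 8 (110741829 to 110805924, minus strand) and overlaps the antisense transcripts Gm15894 and Gm15895 over 6.02% and 2.78% of the counted region, whose fragments cannot be told apart. Over both libraries its level among the non-myeloid classes ran from 54.4 in GABAergic neurons (45.9 to 63.9) and 55.5 in astrocytes (49.1 to 62.4) to 97.3 in vascular nuclei (64.7 to 140.7, from 28 fragments), and was 38.9 in myeloid nuclei (29.4 to 50.4). The order depended on the gate. With the summed gate it ran from 58.3 in astrocytes (52.6 to 64.4) to 74.3 in glutamatergic neurons (67.6 to 81.6), with vascular nuclei at 61.1 (49.4 to 74.8) and the stroke myeloid nuclei at 37.2 (28.9 to 47.1). The 81 sham nuclei of that gate, which did not carry the microglial markers above the rest, were at 59.7 (45.6 to 76.9). In stroke under the spread gate the myeloid level was 38.1 (28.5 to 49.8), and in the 7 sham nuclei it was 53.0 (14.5 to 136) from 4 fragments. The largest peak of the other nuclei was lower in myeloid nuclei. The most open 500 bp bin of the other nuclei began 50 kb after the gene start and held 12.2 cut sites per 1000000 fragments, whereas the same bin held 1 cut in myeloid nuclei of the spread gate. It held 10 cuts in the summed-gate class, its sham nuclei included, or 3.53 against 12.2. No transcript start of Il34 is annotated within 500 bp of that bin. With only the 2 kb upstream and 500 bp downstream of the start counted, the myeloid ratio for Il34 under the summed gate was 1.16, against 0.673 with the gene body.

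Csf1r, the receptor locus, lies on the plus strand of chromosome 18 (61100598 to 61132149) and shares 2.60% of its counted region with Hmgxb3. Its level in stroke was 169 in myeloid nuclei (148 to 192) under the spread gate, 58.0 in vascular nuclei (31.7 to 97.2), 45.9 in GABAergic neurons (32.2 to 63.6), 31.0 in oligodendrocytes (18.6 to 48.4), 28.4 in OPCs (13.6 to 52.3), 22.6 in astrocytes (17.5 to 28.8) and 13.5 in glutamatergic neurons (5.84 to 26.7). Myeloid nuclei stood apart, and each other class overlapped its neighbour in this order. In GABAergic neurons 11 of the 36 fragments (30.6%) came from 1 nucleus. In sham the level was 133 in the 7 myeloid nuclei (63.6 to 244), of which only 2 had a fragment and 1 gave 70% of them, and between 11.8 in astrocytes and 43.4 in vascular nuclei, from 2 fragments, elsewhere.

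The opening of Csf1r in myeloid nuclei had 1 main peak. The 300 bp window with the most myeloid cuts lay in an intron. Its centre was 8.0 kb after the gene start, which is 3.03 kb after the first protein-coding transcript start. It held 9.45% of the 487 myeloid cuts in 0.894% of the counted region. Both gates chose this window. The highest bin of 500 bp, which began 8.0 kb after the gene start and overlapped this window, held 37.5 cut sites per 1000000 fragments against 2.12. Other peaks began 5.0 and 20 kb after the gene start, with 15 cut sites per 1000000 each. The peak at 5.0 kb lies close to the first protein-coding transcript start.

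Spi1, which encodes PU.1, lies on chromosome 2 (91082390 to 91115756, plus strand). Its level in stroke was 105 in myeloid nuclei (88.6 to 123), 63.8 in GABAergic neurons (47.3 to 84.1), 49.0 in glutamatergic neurons (32.8 to 70.4), 41.4 in vascular nuclei (19.9 to 76.1), 34.1 in OPCs (17.6 to 59.6), 33.3 in astrocytes (27.0 to 40.6) and 24.5 in oligodendrocytes (13.7 to 40.3). Among the receptor and the factors it was the locus with the lowest myeloid ratio, and 1 nucleus gave 10 of the 50 fragments in GABAergic neurons (20%). The level in the 7 sham myeloid nuclei was 79.5 (29.2 to 173).

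Myeloid and other nuclei had their most open stretches at different places in Spi1. The window with the most myeloid cuts lay in an intron, 2.30 kb after the start, with 10.6% of 303 cuts, and was the same under both gates. Its level was 13.7 in stroke myeloid nuclei (8.22 to 21.3), from 16 of 80 nuclei, and 0.623 in all other stroke nuclei (0.426 to 0.879). The most open bin of the other nuclei began 19.0 kb after the start, with 9.73 cut sites per 1000000 fragments, where myeloid nuclei had 4.09. Since the window was chosen on myeloid cuts, its levels are a description.

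Irf8 lies on chromosome 8 (120736358 to 120756694, plus strand), wholly inside the predicted read-through model Gm20388, whose fragments cannot be told apart from its own. Its level in stroke was 67.6 in myeloid nuclei (54.6 to 82.7) and 33.1 in vascular nuclei (14.3 to 65.3), followed by 15.4 in astrocytes (11.3 to 20.6), 14.7 in oligodendrocytes (6.71 to 27.8), 13.5 in glutamatergic neurons (5.84 to 26.7), 8.93 in GABAergic neurons (3.59 to 18.4) and 8.53 in OPCs (1.76 to 24.9). Each class overlapped its neighbour in this order, the myeloid class included, as the vascular value rested on 8 fragments. In sham the level was 53.0 in the 7 myeloid nuclei (14.5 to 136). The first of its RefSeq promoters, at chr8:120736108-120736407 on the plus strand, is printed because it was open outside the myeloid class as well.
Irf8 first promoter: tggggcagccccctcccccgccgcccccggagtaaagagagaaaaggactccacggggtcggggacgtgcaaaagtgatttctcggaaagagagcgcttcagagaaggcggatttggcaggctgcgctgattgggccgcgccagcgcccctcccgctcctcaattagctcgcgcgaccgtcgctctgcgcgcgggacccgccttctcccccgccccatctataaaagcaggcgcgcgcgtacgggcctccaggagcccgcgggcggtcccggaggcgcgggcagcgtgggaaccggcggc

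This promoter of Irf8 had a level of 7.50 in myeloid nuclei (3.74 to 13.4), 5.17 in astrocytes (3.38 to 7.57) and 3.41 in all but the myeloid nuclei (3.10 to 3.75), a ratio of 2.20 (1.09 to 3.97), and within stroke the ratio was 1.81 (0.770 to 3.66). The ratio over the whole locus was 4.76. Within the gene, a myeloid bin that began 14.0 kb after the start held 13.6 cut sites per 1000000 fragments. The second RefSeq promoter of Irf8 had 22 fragments in all kept nuclei and none in myeloid nuclei, where the interval allows up to 2.52 fragments per 1000000.

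Runx1 lies on chromosome 16 (92601466 to 92826149, minus strand), is the longest of the 6 loci and overlaps the antisense transcript Gm26626 over 3.22% of the counted region. In stroke its level was 285 in myeloid nuclei (258 to 315), 129 in oligodendrocytes (102 to 161), 104 in vascular nuclei (67.0 to 153), 90.8 in astrocytes (80.2 to 102), 70.1 in GABAergic neurons (52.8 to 91.3), 65.4 in OPCs (41.4 to 98.1) and 35.5 in glutamatergic neurons (22.0 to 54.3). Myeloid nuclei stood apart. The intervals of oligodendrocytes, vascular nuclei and astrocytes overlapped, only just for oligodendrocytes and astrocytes, and differences between these classes were not tested. In sham the level was 133 in the 7 myeloid nuclei (63.6 to 244), with an interval below that of stroke, and 50.2 in astrocytes (41.1 to 60.7). The gene has a distal and a proximal promoter that start isoforms with different N-terminal ends. Both are printed from RefSeq because each was more open in myeloid nuclei and in stroke. The distal promoter spans chr16:92826025-92826324 and the proximal promoter chr16:92697280-92697579, both on the minus strand. Capitals mark matches to the RUNX motif TGTGGT in the distal promoter and to the ETS core GAGGAA in the proximal one, here on the opposite strand.
Runx1 distal promoter: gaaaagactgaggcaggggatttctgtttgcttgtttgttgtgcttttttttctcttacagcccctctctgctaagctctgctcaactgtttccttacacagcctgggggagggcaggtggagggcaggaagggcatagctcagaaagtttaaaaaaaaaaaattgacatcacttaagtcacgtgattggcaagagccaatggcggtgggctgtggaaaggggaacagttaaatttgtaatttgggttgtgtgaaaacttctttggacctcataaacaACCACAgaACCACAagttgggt
Runx1 proximal promoter: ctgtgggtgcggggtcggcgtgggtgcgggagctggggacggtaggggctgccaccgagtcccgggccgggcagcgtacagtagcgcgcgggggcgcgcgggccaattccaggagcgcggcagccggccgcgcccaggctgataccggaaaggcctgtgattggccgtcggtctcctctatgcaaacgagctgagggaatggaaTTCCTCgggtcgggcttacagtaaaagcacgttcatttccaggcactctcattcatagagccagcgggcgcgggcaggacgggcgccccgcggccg

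The distal promoter of Runx1 was nearly closed outside the myeloid class. Within stroke it had 8 fragments in 8 of 80 myeloid nuclei, a level of 5.75 (2.48 to 11.3), and 21 in all other kept nuclei, a level of 0.409 (0.253 to 0.625), a ratio of 14.1 (5.39 to 33.1). Under the summed gate the ratio within stroke was 8.86 (3.2 to 21.5). With both libraries together, where most of the other nuclei were sham, it was 28.4 (11.0 to 65.3) under the spread gate and 12.2 (4.45 to 29.0) under the summed gate. The proximal promoter had 12 fragments in stroke myeloid nuclei, a level of 8.63 (4.46 to 15.1), against 1.23 (0.942 to 1.57) in the other stroke nuclei, a ratio of 7.04 (3.46 to 13.2). It was 5.31 (2.60 to 9.93) under the summed gate, and with both libraries 10.4 (5.21 to 19.0) and 5.84 (3.0 to 10.5). Among 22615 RefSeq promoters with at least 20 fragments, 13.9% were at least 2-fold higher in myeloid nuclei of the spread gate with both libraries together, and of the 5 promoters of Csf1, Irf8 and Runx1 3 were. The median ratio over all these promoters was 0.818. The window with the most myeloid cuts in Runx1 lay in an intron 127 kb after the gene start, near the proximal promoter, and held 3.44% of 813 cuts.

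Motifs were searched on both strands of the 5 promoters. TGTGGT was found 2 times in the distal Runx1 promoter, at bases 279 and 287 of the window counted from its 5′ end, and is present in 16.8% of 32851 promoters of the same length. GAGGAA was found 1 time, at base 205 of the proximal Runx1 promoter, and is present in 28.3%. The longer PU.1 sequence GAGGAAGT, which contains GAGGAA, is present in 3.2% of promoters, the IRF motif (GAAA, any 2 bases, GAAA) in 3.44%, TTGCNNAA (C/EBP) in 10.8% and TGANTCA (AP-1) in 7.81%, and these were not found in the 5 promoters. A match is a description of the letters only.

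**Figure D4:**
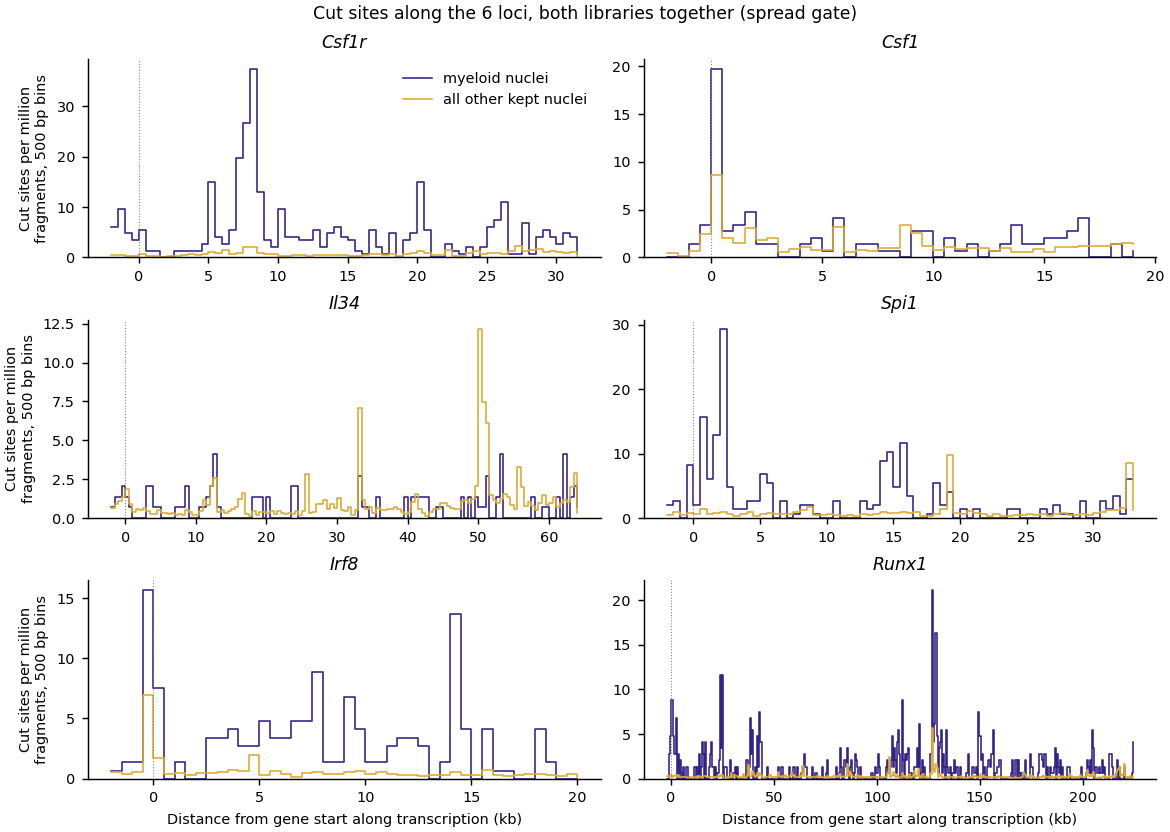
Cut sites per 1000000 fragments in 500 bp bins along the 6 loci by distance from the gene start in the direction of transcription, in myeloid nuclei (dark) and all other kept nuclei (yellow) of both libraries under the spread gate; the dotted line marks the gene start. The highest myeloid bin of Csf1r stands at 37.5 against 2.12 in other nuclei, and the highest bin of the other nuclei at Il34 stands at 12.2.

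Most myeloid nuclei had a fragment over the receptor and over Runx1, the longest locus. In stroke under the spread gate, 77 of 80 myeloid nuclei (96.3%) had a fragment over Runx1, 66 (82.5%) over Csf1r, 59 (73.8%) over Spi1 and 47 (58.8%) over Irf8. Myeloid nuclei were deeper, with a median of 17533 fragments against 10758 in stroke astrocytes. After each nucleus had been thinned to 3000 fragments, which left out 3 shallower myeloid nuclei and 3 astrocytes, a Csf1r fragment remained in 31.2% of myeloid nuclei (21.1% to 42.7%) and 6.48% of astrocytes (3.75% to 10.3%). For Spi1 the shares were 31.2% (21.1% to 42.7%) and 9.31% (6.0% to 13.6%), for Irf8 18.2% (10.3% to 28.6%) and 4.05% (1.96% to 7.32%), and for Runx1 55.8% (44.1% to 67.2%) and 17.0% (12.5% to 22.3%). For Il34 they were 7.79% (2.91% to 16.2%) and 13.4% (9.38% to 18.3%), which overlapped. The 22 stroke vascular nuclei had a Csf1r fragment in 22.7% (7.82% to 45.4%), which overlapped the myeloid share.

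Between the libraries, Runx1 and Csf1r had a level at least 25% higher in stroke. Irf8, Spi1 and Csf1 were higher by less, and Il34 was lower. Over all kept nuclei the Runx1 level was 54.5 in sham and 85.4 in stroke, a ratio of 1.57 (1.5 to 1.63), and the Csf1r level was 23.8 and 31.3, a ratio of 1.31 (1.23 to 1.40). Irf8 was at 13.4 and 16.4 (1.22, 1.12 to 1.34), Spi1 at 32.6 and 37.0 (1.14, 1.07 to 1.21), Csf1 at 29.0 and 32.8 (1.13, 1.06 to 1.21) and Il34 at 68.1 and 64.6 (0.950, 0.909 to 0.992). 2 of 6 loci were at least 25% higher in stroke, beside 20% of genes, so the count is not far from the background. More myeloid nuclei in stroke and more open loci in each nucleus cannot be told apart in these sums. Without the myeloid nuclei of the spread gate the ratio was 1.47 for Runx1 (1.41 to 1.53), 1.16 for Csf1r (1.08 to 1.247) and at most 1.12 for the others, so 1 of 6 passed, beside 19.2% of genes. Without the filter on fragments in peaks, Runx1 was at 1.65 and Csf1r at 1.15, whereas Csf1 at 0.864 and Spi1 at 0.961 turned direction. The median gene was then at 0.854.

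Most Runx1 fragments lay in nuclei of no class, with 3262 of the 4507 stroke fragments under the summed gate. The stroke over sham ratio there was 1.467 (1.396 to 1.542), and 1.444 (1.378 to 1.512) under the spread gate. Nuclei of more than 1 class under the summed gate are possible doublets. There Runx1 was at 3.123 (2.355 to 4.162) and Csf1r at 4.923 (3.199 to 7.761). Of these, 12 stroke nuclei were myeloid under the spread gate. Within classes, Runx1 was also higher in astrocytes, at 57.2 in sham and 91.4 in stroke under the summed gate. The ratio was 1.60 (1.33 to 1.93), and 1.81 (1.44 to 2.29) under the spread gate. In astrocytes Csf1r was at 1.52 (1.06 to 2.22) and Irf8 at 1.34 (0.855 to 2.12), so 3 of 6 loci were at least 25% higher, beside 18.8% of genes. In oligodendrocytes Runx1 was at 1.42 (1.03 to 1.94), and at 1.57 (1.02 to 2.48) under the spread gate. In GABAergic neurons Runx1 was at 1.45 (1.16 to 1.82), and at 1.82 (1.26 to 2.62) under the spread gate. Spi1 was there at 2.18 (1.51 to 3.13) and 2.66 (1.75 to 4.06) under the summed and the spread gate. The Runx1 interval included 1 in OPCs, at 1.15 (0.856 to 1.53) under the summed gate and 0.780 (0.431 to 1.40) under the spread gate, and in glutamatergic neurons, at 0.787 (0.574 to 1.06) and 0.693 (0.406 to 1.14). In vascular nuclei of the summed gate Runx1 was at 1.28 (0.851 to 1.92) and Csf1r at 2.17 (1.09 to 4.45). Under the spread gate Csf1r was there at 1.34 (0.307 to 12.1), and Runx1 had 0 sham fragments. Csf1 was at 2.40 in oligodendrocytes (1.57 to 3.73) under the summed gate but at 1.12 (0.658 to 1.94) under the spread gate. In myeloid nuclei of the summed gate 5 of 6 loci passed the same threshold, from 1.72 for Csf1 (1.07 to 2.84) to 4.49 for Csf1r (2.93 to 7.17), beside 28.7% of genes, with sham nuclei that did not carry the microglial markers above the rest. With the spread gate Csf1r was at 1.27 (0.681 to 2.69), Spi1 at 1.32 (0.592 to 3.65), Irf8 at 1.27 (0.482 to 4.77) and Runx1 at 2.15 (1.16 to 4.52) from 10 sham fragments each for Csf1r and Runx1. As 70% of those of Csf1r came from 1 nucleus, against 30% for Runx1, the sham value of Csf1r rests on that nucleus. Under the spread gate 5 of 6 loci passed the threshold, with Csf1 resting on 1 sham fragment. Without the 12 possible doublets 3 of 6 passed, with Csf1r at 1.16 and Irf8 at 1.23. The share of all genes passing was not taken for these 2 sets of nuclei. Their counts, with 7 sham nuclei, therefore have no background and are a description.

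At the promoters the libraries differed most at Runx1. The distal promoter had 3 fragments in sham and 29 in stroke, each in a different nucleus, which are levels of 0.0408 (0.00842 to 0.119) and 0.549 (0.368 to 0.789) and a ratio of 13.5 (4.17 to 69.0). The proximal promoter had 35 and 75 fragments, levels of 0.476 and 1.42 and a ratio of 2.98 (1.97 to 4.59). The Csf1 promoter was at 1.40 and 2.56 (1.82, 1.40 to 2.38), and the first Irf8 promoter at 3.62 and 3.24 (0.895, 0.734 to 1.09). Over all RefSeq promoters 17.5% were at least 25% higher in stroke and the median ratio was 0.912. Of the 5 promoters 4 passed, among them the second Irf8 promoter with 9 and 13 fragments.

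These differences were also present outside the myeloid gate, where most nuclei had no class and where myeloid nuclei missed by the gate would lie. Whether such nuclei gave the fragments was not tested. Without the myeloid nuclei of the spread gate, 3 sham and 21 stroke fragments remained at the distal Runx1 promoter, a ratio of 10.0 (2.99 to 52.3). 19 of the 21 were in nuclei of no class and 2 in astrocytes. The ratio was 2.57 (1.67 to 4.00) at the proximal promoter and 1.80 (1.38 to 2.36) at the Csf1 promoter, while 16.6% of all promoters were at least 25% higher. The Csf1r and Spi1 intron windows were chosen on myeloid cuts, nearly all from stroke nuclei, so their pooled values are a description. The Csf1r window had 51 fragments in sham and 129 in stroke over all kept nuclei, a ratio of 3.52 (2.53 to 4.97), and 2.91 (2.06 to 4.17) without the myeloid nuclei. The Spi1 window had 28 and 51, a ratio of 2.54 (1.57 to 4.18), and 1.69 (0.982 to 2.94) without them, an interval that included 1. In astrocytes of the spread gate the Csf1r window had 1 fragment in sham and 17 in stroke, the latter in 15 nuclei, a ratio of 12.3 (1.93 to 515). Under the summed gate it had 2 and 18, a ratio of 8.68 (2.08 to 77.1). No share of other windows was taken in astrocytes. When barcodes with few fragments in peaks were kept as well, the ratio was 11.3 (3.60 to 57.2) at the distal Runx1 promoter and 2.14 (1.44 to 3.25) at the proximal one, but 1.21 (0.938 to 1.57) at the Csf1 promoter, beside a median of 0.666 over all promoters.

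**Figure D5:**
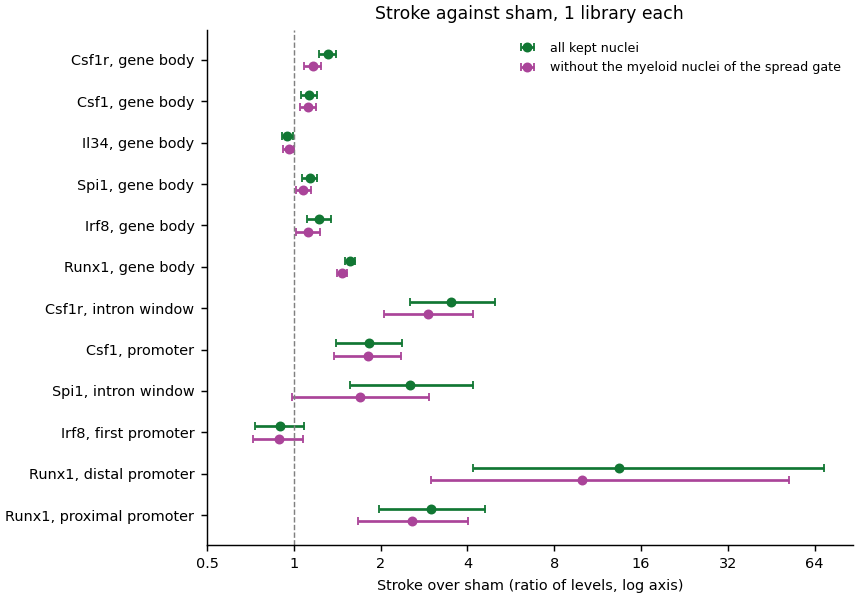
Ratio of the stroke level to the sham level for the 6 loci and for 6 windows of 300 bp within them, over all kept nuclei (green) and without the myeloid nuclei of the spread gate (purple), on a log axis with 95% exact intervals for counting error. The distal Runx1 promoter lies farthest to the right at 13.5, and the first Irf8 promoter lies below 1 at 0.895.

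Other genes of the pathway were described from lists that were also chosen with earlier results of these data known. Of 19 genes of CSF1 receptor signalling, 15 were at least 2-fold higher in myeloid nuclei of the spread gate and none was 2-fold lower, with a median ratio of 2.70, beside 12.4% of all genes and a median of 0.974. Under the summed gate 9 of 19 were, with a median of 1.69, beside 6.82%. The highest were Tyrobp, which encodes the adaptor DAP12, at 7.48, the SRC-family kinase gene Lyn at 6.32 and the exchange factor gene Vav1 at 5.47. The lowest were Stap2 at 1.06, Grb2 at 1.19 and Cbl, the ubiquitin ligase of the activated receptor, at 1.26. Of 13 related cytokines and receptors 3 passed under the spread gate, beside 12.4% of genes, with a median of 1.30, and 1 under the summed gate, beside 6.82%. The 3 were Csf3r at 4.36, Csf2rb2 at 3.05 and Csf2rb at 2.48, receptor chains of G-CSF and of the GM-CSF family (Csf3r is also in the granulocyte list above), whereas Kitl was at 0.750, Kit at 0.897 and Ptprz1, which has been described as a further IL-34 receptor, at 0.967.

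Of 32 myeloid transcription factor genes 13 were at least 2-fold higher in myeloid nuclei and none 2-fold lower, with a median ratio of 1.93, beside 12.4% of all genes. With the summed gate 7 were higher and 1 lower, with a median of 1.46, beside 6.82%. Cebpd was highest at 4.86, followed by Tal1 at 4.39 and Irf5 at 3.90, and Runx2 at 0.604, Spib at 0.674 and Spic at 0.737 were lowest. Runx1 at 4.27 therefore stood apart from Runx2 and from Runx3 at 1.92. Between the libraries, over all kept nuclei, Cebpd was at 2.32, Spic at 1.79 and Tfec at 1.57 in stroke over sham, and Nr4a1 at 0.745, Spib at 0.817 and Gfi1 at 0.898. 11 of the 32 genes were at least 25% higher and Nr4a1 was lower by the same factor, with a median of 1.10. For receptor signalling the count was 8 of 19 with a median of 1.18, led by Lyn at 1.68. Of all genes 20% were at least 25% higher, with a median of 0.981.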

How the data were processed

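Per the labels, the authors aligned scATAC-seq reads to mm10 with Cell Ranger ATAC 2.1.0 and deposited, for each library, a list of deduplicated fragments with ends moved to the cut sites, and raw counts for each barcode, among them read pairs and peak fragments. From these, fragments of called barcodes were counted over genes of GENCODE M21 on the same build and given as fragments per 1000000, in Python 3.11.15 with scipy 1.17.1. Each fragment was counted 1 time per locus, whatever its number of read pairs.

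The 6 genes and all lists were chosen with earlier results of these data known. The spread gate was chosen after the data had been seen. Named genes were the members, the 3 highest and the 3 lowest of each list under the spread gate, and the 3 genes most like each member; Runx3 and the granulocyte, monocyte and macrophage marker genes were added after their values had been seen. Nuclei that passed more than 1 gate were left out of the classes as possible doublets (127 in sham and 78 in stroke under the summed gate, 7 and 9 under the spread gate); no doublet caller was run. Windows of 300 bp were moved in steps of 50 bp. Intervals are exact Poisson, binomial or conditional binomial intervals and cover counting error only. Ratios, their intervals and the summed gate were tried on simulated, independent Poisson counts, while the counting of fragments was not. Such counts lack the pile-up of gate fragments at 1 locus seen in sham nuclei, so the trial could not show its effect. RefSeq promoters were found for 3 of the 6 members. Alternatives changed the gate, filter, region, scaling, depth and comparison group. The microglial list was used with 7 genes; 1 further marker is not reported here.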

Additional observations from a re-analysis of the deposited data

Results flagged for a closer look

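The stroke over sham ratio of Irf8 lay on opposite sides of 1 in 2 classes, each with an interval for counting error that did not include 1. Under the summed gate it was 0.580 in glutamatergic neurons (0.350 to 0.922, 114 sham and 22 stroke fragments) and 2.99 in myeloid nuclei (1.74 to 5.46, 16 and 87 fragments). With 1 library per condition the difference between the classes was not tested. In sham, 21 of the 114 glutamatergic fragments (18.4%) came from 1 nucleus, and the sham myeloid nuclei of this gate did not exceed other nuclei in microglial markers. Under the spread gate the ratios were 0.542 (0.218 to 1.18), with 16 of 37 sham fragments (43.2%) from 1 nucleus, and 1.27 (0.482 to 4.77).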

How the results depend on the processing

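No paired analysis was possible because only 1 library was made of sham and 1 of stroke. Of 21 alternatives for the count of loci at least 2-fold higher in myeloid nuclei all kept it within 1.5 times. So did 18 for the count higher in stroke within myeloid nuclei (5). The latter count became 3 with only the spread-gate nuclei that were also in the summed gate, for which no share of all genes was taken. Most of these 18 used the summed gate, whose 81 sham nuclei did not carry the microglial markers above the rest. The spread gate had 7 sham nuclei. There the intervals of Csf1r, Csf1, Spi1 and Irf8 included 1, and Csf1 had 1 sham fragment. The count of loci at least 25% higher in stroke over all kept nuclei was 2 and became 1 without the filter on fragments in peaks; the other 6 alternatives kept it within 1.5 times. The ratio of myeloid shares, 1.93 under the summed gate, became 15.4 under the spread gate and 13.1 with only its nuclei that were also in the summed gate. With the Poisson tail of the spread gate loosened to 0.001 and 0.01 it was 10.1 and 6.64. The spread gate drops nuclei with 1 dominant locus, and its myeloid nuclei had medians of 4924 fragments in sham and 17533 in stroke. What moved the ratio was not tested. For this ratio, 12 other alternatives stayed within the interval. Without the filter on fragments in peaks, the Runx1 intron window turned from 1.38 to 0.910, and the Csf1r window, the Csf1 promoter and the first Irf8 promoter moved to 2.50, 1.21 and 0.607, while the median of all promoters went from 0.912 to 0.666. Depth limits the sham vascular (6) and myeloid (7) nuclei of the spread gate, where Runx1 had 0 fragments and Csf1 had 1, respectively.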

Other observations

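Across the 7 classes in each library (14 points under the summed gate, which share library, depth and gate loci), the genes whose log2 level followed each member most closely by Pearson's r, among 16450 genes, were Mthfs (0.921), Gpr183 (0.896) and Rps6ka1 (0.887) for Csf1r, Irf5 (0.894), Nlrp1b (0.884) and P2ry13 (0.870) for Spi1, Il17ra (0.889), Cd244a (0.849) and Cd200r1 (0.842) for Irf8, and Ctsc (0.914), BC035044 (0.906) and Wasf2 (0.904) for Runx1. For the ligands they were Zfhx4 (0.917), Pla2g16 (0.889) and Rgs3 (0.840) for Csf1 and Cntn1 (0.956), Srgap3 (0.898) and Arc (0.889) for Il34. Among the members, r was 0.825 between Csf1r and Runx1, 0.743 between Spi1 and Irf8 and -0.846 between Il34 and Runx1. Under the spread gate, with 12 points, other genes led for every member, and r between Il34 and Runx1 was -0.101.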
